A study of Mus musculus with 9 samples.

Results

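The genes described here are 7 genes of the MHC class II pathway, H2-Aa, H2-Ab1, H2-Eb1, Cd74, H2-DMa, H2-DMb1 and Ciita, chosen by name as the classical chains and their dedicated helpers. They occupied 8 of the 23799 rows of the expression table, because Ciita had 2 rows, and 7 of these 8 rows passed the filter on low values. They were followed across 9 RNA-seq libraries of tumour cells sorted by fluorescence from mice. The breast cancer (BC) model used cells derived from 4T1, a mammary carcinoma line of BALB/c mice, carrying eGFP, with lung metastases (numbers 4 and 6) and primary tumours (numbers 1 and 5) taken at 28 days. The pancreatic ductal adenocarcinoma (PDAC) model gave liver metastases (numbers 1 and 5), 1 lung metastasis (number 1) and primary tumours (numbers 1 and 5). All PDAC libraries carry p48-Cre, the heterozygous alleles p53F/+ and KrasL/+, and ROSA-LSL-YFP, and the sorted cells were YFP-positive; p48 is Ptf1a, whose promoter drives Cre in pancreatic progenitors. The number 1 PDAC libraries are labelled SIRT6F/F in addition and 25.67 weeks, and the number 5 libraries have no SIRT6 label and 28.95 weeks. Number, age and SIRT6 label cannot be told apart in the PDAC libraries, and the labels do not say whether the BC libraries of a group came from separate animals, so the spread behind each p-value is that between libraries and may be partly technical.

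MHC class II molecules present peptides from endocytosed proteins to CD4+ T cells. An alpha and a beta chain pair in the endoplasmic reticulum with the invariant chain, proteases trim that chain in endosomes, and the DM heterodimer exchanges its last fragment for a peptide. The genes are active in dendritic cells, B cells and macrophages, among other cells. In many epithelial and tumour cells they can be induced by interferon-gamma through the transactivator Ciita. Ciita acts on a conserved array of promoter elements, among them the X and Y boxes.

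Promoters of the pathway are shown because Ciita acts through these boxes. RefSeq promoter windows (GRCm38.p6, 250 bases before to 50 after the start) were matched for 4 of the 7 genes, H2-Aa, H2-Eb1, H2-DMa and H2-DMb1; the H2-DMb2 promoter, of the second DM beta gene, is printed for comparison. The last 150 bases before each start are given 5′ to 3′, in lower case, with capitals for the X box form AACNNNTGATG and the Y box core ATTGG on either strand (CCAAT on the other).
H2-Eb1 (chr17:34305717-34305866, plus strand): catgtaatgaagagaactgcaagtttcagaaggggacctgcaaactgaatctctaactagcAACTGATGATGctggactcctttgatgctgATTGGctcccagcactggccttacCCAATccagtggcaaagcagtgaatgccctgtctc
H2-DMb1 (chr17:34153041-34153190, plus strand): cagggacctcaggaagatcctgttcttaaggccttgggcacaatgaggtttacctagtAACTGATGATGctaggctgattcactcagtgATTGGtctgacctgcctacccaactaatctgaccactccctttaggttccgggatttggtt
H2-DMb2 (chr17:34145099-34145248, plus strand): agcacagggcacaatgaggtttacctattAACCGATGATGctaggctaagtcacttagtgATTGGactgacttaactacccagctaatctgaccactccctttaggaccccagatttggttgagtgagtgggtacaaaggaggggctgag
H2-Aa (chr17:34287824-34287973, minus strand): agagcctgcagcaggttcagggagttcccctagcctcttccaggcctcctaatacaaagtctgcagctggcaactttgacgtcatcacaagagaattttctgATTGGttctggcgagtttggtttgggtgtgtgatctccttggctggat
The X box form was read from these class II promoters themselves, so its presence there is no independent result. It occurred in the 250 bases upstream of the start in 177 of 32851 RefSeq windows (0.539%), and the Y box core in 11120 (33.8%) on either strand. The free letters of the X form can hold CCAAT, so the search for pairs required that the 2 motifs not overlap. An X box form followed within 40 bases by a Y box core on the same strand was in 10 windows (0.0304%), of which 4 belonged to H2-Eb1, H2-DMb1, H2-DMb2 and H2-Ob, so 2 were among the 7 genes. The gap between X and Y was 19 bases in H2-Eb1, 20 in H2-DMb1 and H2-DMb2, and 17 in H2-Ob. H2-Aa held the Y box core and not these X letters, and H2-DMa did not hold the X letters in either of its windows. H2-DMb1 and H2-DMb2 resemble each other along the transcript too. They shared 361 stretches of 50 bases, 26.6% of those of H2-DMb1 and 25.2% of those of H2-DMb2, so reads could be split between them and their separate levels are uncertain. No pair among the 7 genes themselves shared such a stretch.

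Levels are given in RPKM, which scales reads by the length of the gene and by the read total of the library. Between 9530 and 20478 genes were above 0 in a library, with the fewest in PDAC lung metastasis 1, PDAC primary 5 and BC lung metastasis 6. Haemoglobin genes held 20.1 to 38.9% of all RPKM in the 3 PDAC metastases, 10.9% in the PDAC primary of number 1, and between 0.00608 and 0.107% in PDAC primary 5 and the BC libraries. PDAC primary 5 also listed widely used genes near 0, such as Sdha, a subunit of the respiratory chain, at 0.0247 RPKM where every other library had 8.26 to 79.7 RPKM. The labels describe sorted tumour cells, but in PDAC lung metastasis 1 the epithelial marker Cdh1 was listed at 0 and the sum of 10 epithelial markers was 132 RPKM, against 2234 and 17122 RPKM in PDAC primaries 1 and 5, while Sftpc, made by alveolar type 2 cells, stood at 34207 RPKM.

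Cd74, the invariant chain, was the most abundant of the 7 genes in all 9 libraries and held 45.4 to 63.7% of their summed RPKM. It measured 2975 and 2704 RPKM in BC lung metastases 4 and 6, against 262 and 488 RPKM in BC primaries 1 and 5. In the PDAC model it was at 3453 and 2953 RPKM in liver metastases 1 and 5 and at 6188 RPKM in the lung metastasis, against 26231 and 290 RPKM in primaries 1 and 5. The BC groups did not overlap, and the 2 PDAC primaries lay on either side of all PDAC metastases. Among all genes of its library, Cd74 had rank 3 in PDAC primary 1 and rank 295 in PDAC primary 5.

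The classical chains followed the same layout. H2-Aa, the alpha chain of I-A, had 382 and 290 RPKM in BC lung metastases 4 and 6, against 25.4 and 73.3 RPKM in BC primaries 1 and 5. In PDAC it had 366 and 393 RPKM in liver metastases 1 and 5 and 671 RPKM in the lung metastasis, against 2276 and 54.2 RPKM in primaries 1 and 5. The liver metastases were close to each other, and the 2 primaries were 42.0-fold apart. H2-Ab1, the I-A beta chain, reached 777 and 857 RPKM in BC lung metastases 4 and 6, against 58.0 and 114 RPKM in BC primaries 1 and 5. Its PDAC levels were 1796 and 1277 RPKM in liver metastases 1 and 5 and 4834 RPKM in the lung metastasis, against 9500 and 243 RPKM in primaries 1 and 5. It was the most abundant of the 3 chains in all 9 libraries, with H2-Eb1 closest to it in BC lung metastasis 4.

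H2-Eb1, the beta chain of I-E, had 744 and 571 RPKM in BC lung metastases 4 and 6, against 37.4 and 104 RPKM in BC primaries 1 and 5. It had 904 and 415 RPKM in PDAC liver metastases 1 and 5, with 1621 RPKM in the PDAC lung metastasis, against 4319 and 12.1 RPKM in PDAC primaries 1 and 5. PDAC primary 5 was the lowest of the 9 libraries for H2-Eb1, whereas BC primary 1 was the lowest for H2-Aa, H2-Ab1, Cd74 and H2-DMb1.

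The peptide editor DM has an alpha chain from H2-DMa and a beta chain from H2-DMb1. H2-DMa measured 162 and 171 RPKM in BC lung metastases 4 and 6, against 22.4 and 24.2 RPKM in BC primaries 1 and 5. In PDAC it was at 85.6 and 61.6 RPKM in liver metastases 1 and 5, with 188 RPKM in the lung metastasis, against 346 and 0.0195 RPKM in primaries 1 and 5. The value in PDAC primary 5 corresponds to about 2.10 reads, below the 3 reads that a count of 0 allows, so a fitted difference of H2-DMa against that library depends on the pseudocount and is no measure of size. H2-DMb1 measured 87.3 and 51.5 RPKM in BC lung metastases 4 and 6, against 5.80 and 11.5 RPKM in BC primaries 1 and 5. It stood at 80.5 and 47.3 RPKM in PDAC liver metastases 1 and 5, with 129 RPKM in the PDAC lung metastasis, against 133 and 16.5 RPKM in PDAC primaries 1 and 5. PDAC primary 5 thus listed the beta chain of DM almost without the alpha chain, but that library also listed widely used genes such as Sdha near 0. Reads of H2-DMb1 could also be split with H2-DMb2. Whether the chains of DM were out of balance in these cells was not tested.

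Ciita, the transactivator, was the lowest of the 7 genes in all 9 libraries, and in PDAC primary 5 both of its rows were listed at 0. Its tested row measured 3.01 and 3.02 RPKM in BC lung metastases 4 and 6, against 0.371 and 1.23 RPKM in BC primaries 1 and 5. It was at 0.345 and 3.23 RPKM in PDAC liver metastases 1 and 5, with 5.59 RPKM in the PDAC lung metastasis, against 30.5 RPKM in PDAC primary 1 and a listed 0 in PDAC primary 5, where 3 reads would be 0.0100 RPKM. PDAC liver metastasis 1 had about 56.8 Ciita reads while its Cd74 stood with the other PDAC metastases. The second Ciita row, under an identifier that GENCODE M21 does not hold, was at 0.434 RPKM in BC lung metastasis 4 and a listed 0 in BC lung metastasis 6, against 0.0441 and 0.155 RPKM in BC primaries 1 and 5. It was at 0.780 RPKM in PDAC liver metastasis 5 and listed at 0 in PDAC liver and lung metastases 1, against 4.34 RPKM in PDAC primary 1 and a listed 0 in PDAC primary 5, and it was not tested.

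**Figure D1:**
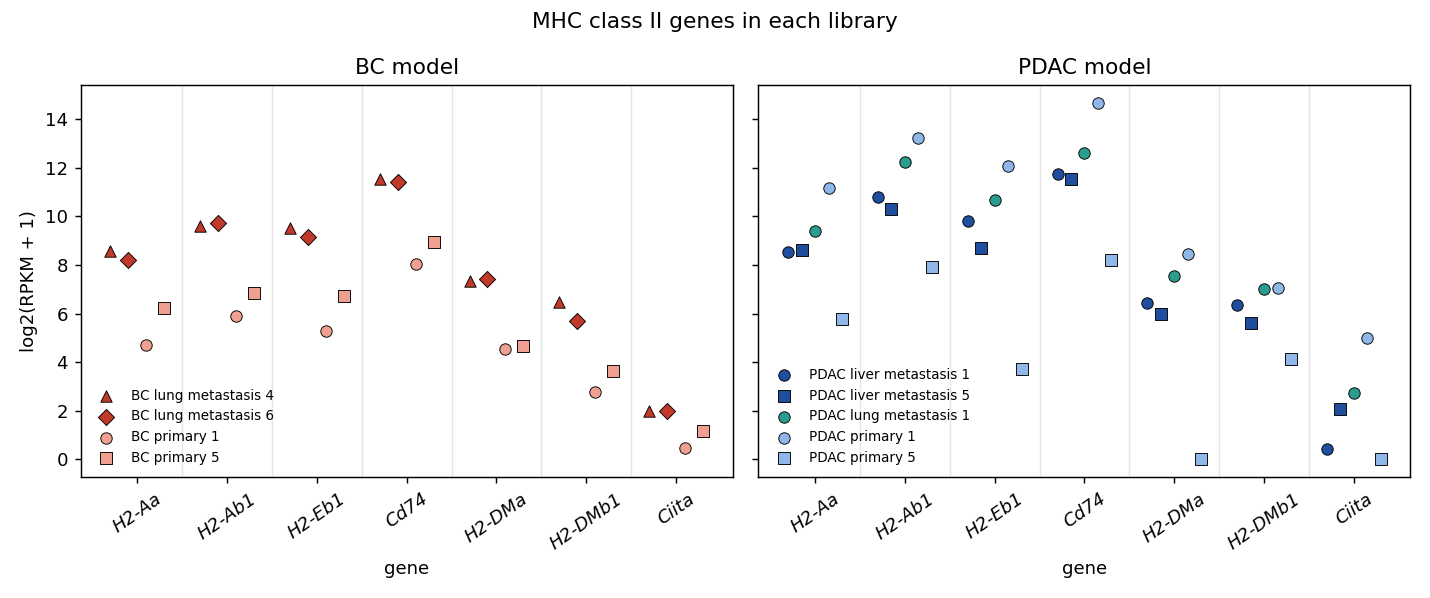
Each point is 1 library's log2(RPKM + 1) for the gene on the horizontal axis, BC libraries on the left and PDAC libraries on the right, with metastases left of primaries and no error bars because every library is shown. For all 7 genes both BC lung metastases lie above both BC primaries, and PDAC primary 1 (Cd74 at 26231 RPKM) and PDAC primary 5 (290 RPKM) lie on either side of the PDAC metastases.

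The first comparison asked how metastatic cells differ from primary cells in the BC model. All 7 genes were higher in both lung metastases than in both primaries, by 2.30-fold for Ciita to 10.3-fold for H2-Eb1 on the log2(RPKM + 1) scale, and none was called. Calls required an adjusted p below 0.05 in limma's moderated test on log2(RPKM + 1), and 0 of 12832 genes (0%) were called, with 265 genes (2.07%) at an unadjusted p under 0.05. Libraries did not overlap and were higher in metastases for 15.8% of all genes tested, and lower for 27%. The median log2 difference of the 7 genes was 2.91, against -0.29 over all genes tested. H2-DMb1 differed by 2.88 ± 0.99 (log2, SE, n = 2 libraries each; limma adjusted p = 0.974) and H2-Ab1 by 3.31 ± 1.28 (adjusted p = 0.974), the 2 genes of the 7 with an unadjusted p under 0.05. The log2 difference was 2.91 ± 1.34 for H2-Aa, 3.36 ± 1.96 for H2-Eb1, 2.98 ± 1.51 for Cd74, 2.78 ± 1.97 for H2-DMa and 1.20 ± 1.48 for Ciita, with adjusted p of 0.974 to 0.979. The fit took 1 spread per gene over all 9 libraries, so these errors and p-values also carry the gap between the 2 PDAC primaries. For H2-DMa that gap was 346 against 0.0195 RPKM, the latter about 2.10 reads. With the fit, its filter and its adjustment restricted to the 4 BC libraries, 2 residual degrees of freedom were left. In that fit limma called 6 of the 7 genes, all but Ciita (adjusted p = 0.585), and 73 genes in all. Adjusted p of the 6 ran from 0.00024 for H2-Eb1 to 0.0116 for Cd74. The share of all genes tested that was called there was not computed.

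Marker lists of cells that carry class II were set beside this difference. The 10 pan-leukocyte markers summed to 248 and 162 RPKM in BC lung metastases 4 and 6, against 89.0 and 98.7 RPKM in BC primaries 1 and 5. Of their log2 differences 5 of 10 were positive, against 35.6% of all genes tested, with a median of -0.07 against -0.29. Both metastases were higher than both primaries for 4 of the 10 and lower for 0, against 15.8% and 27% of all genes, and none was called. Macrophage markers summed to 398 and 262 RPKM in the metastases, against 388 and 581 RPKM in the primaries. Dendritic cell markers summed to 37.4 and 16.5 RPKM in the metastases, against 18.9 and 16.0 RPKM in the primaries. B cell markers summed to 54.8 and 35.7 RPKM in the metastases, against 117 and 73.6 RPKM in the primaries, nearly all of it Sdc1, which epithelial cells also express. BC lung metastasis 6, with Cd74 at 2704 RPKM, listed at 0 the defining markers Ptprc (all leukocytes) and Csf1r (macrophages). Its markers at 0 were 1 of 10 pan-leukocyte, 6 of 12 macrophage, 6 of 9 B cell and 7 of 10 dendritic cell markers. That library had 10938 genes above 0, against 18665 to 20478 in the other BC libraries, and also listed the epithelial marker Cdh1 at 0. A listed 0 there does not show absence. Other markers of these lists were present in that library, with Arhgdib at 104 RPKM and Laptm5 at 17.0 RPKM, the highest of the 4 BC libraries, and Cd52 at 25.3, Cd68 at 26.7 and Lyz2 at 200.3 RPKM. Markers of the host organ moved with the class II difference too, as lung epithelial markers summed to 31.0 and 26.2 RPKM in BC lung metastases 4 and 6, against 2.64 and 3.32 RPKM in BC primaries 1 and 5, with 4 of 5 tested differences positive and 0 called. Scgb1a1 was at 6.05 and 24.3 RPKM in these metastases and listed at 0 in both primaries. The part of leukocytes and lung cells in the BC difference was not tested. The neutrophil list, led by S100a8, S100a9 and Retnlg, had 10 of 10 positive differences and summed to 2517 and 1541 RPKM in BC lung metastases 4 and 6, against 28.1 and 28.1 RPKM in BC primaries 1 and 5. In these bulk samples, more cells of a type and more RNA per cell cannot be told apart.

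In the PDAC model the comparison with primaries turned on which primary was used. Against both PDAC primaries, the liver metastases had a median log2 difference of 0.21 over the 7 genes, against 0.08 over all genes tested, with 5 positive and 2 negative differences from 1.97 ± 1.97 (SE) for H2-DMa to -1.23 ± 1.48 for Ciita. None was called (limma adjusted p from 0.917 to 1, n = 2 libraries each), where 1 of 12832 genes (0.00779%) was, and none had an unadjusted p under 0.05, where 821 genes (6.4%) had. No member had non-overlapping libraries, against 15.4% of all genes higher and 10.2% lower. Without PDAC primary 1 the median was 2.78, and without PDAC primary 5 it was -2.65. The primary side is then 1 library, assumed to vary like the other groups. In PDAC primary 5, H2-DMa and Ciita were under 3 reads.

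Within each PDAC number, which has a single age and genotype label, the libraries were compared directly. In number 1, all 7 genes were lower in the liver metastasis than in the primary, by -0.72 for H2-DMb1 to -4.55 for Ciita on the log2 scale, with a median of -2.40 against -0.14 over all genes. In number 5, all 7 genes were higher in the liver metastasis than in the primary, with a median of 2.83 against 0.72 over all genes. The differences ran from 1.47 for H2-DMb1 to 4.98 for H2-Eb1 among the 5 genes other than H2-DMa and Ciita, which were under 3 reads in that primary. Between the 2 primaries, number 1 was higher than number 5 for 7 of 7 genes, with H2-DMa and Ciita again under 3 reads in number 5. The median was 5.37 (log2), against 0.53 over all genes tested, of which 61.6% were higher in number 1. These are differences between single libraries and have no test.

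In number 1, all 7 genes were higher in the lung metastasis than in the liver metastasis, where 35.6% of all genes tested were. The single PDAC lung metastasis was also above liver metastasis 5 for all 7 genes. The share of all genes above both liver metastases was not computed. It also held Sftpc, made by alveolar type 2 cells, at 34207 RPKM, and the part of lung cells in its class II levels was not tested. Against the PDAC primaries, which the liver comparison also used, the median difference of the lung metastasis was 1.43, against -0.50 over all genes tested. No member was called (limma adjusted p from 0.611 to 1, 1 library against 2, the lone library assumed to vary like the other groups), where 75 of 12832 genes (0.584%) were, and none of the 7 had an unadjusted p under 0.05, where 13.8% of genes had. For all 7 genes it lay between the 2 primaries, while 23.9% of all genes tested were above both primaries and 34.4% below both. With the PDAC number as a block, the median over the 7 genes was 0.22 and 0 of 12832 genes were called. In number 1, the lung metastasis was below the primary for all 7 genes, with a median of -1.41 and a range of -2.26 for Ciita to -0.04 for H2-DMb1. Over all genes tested the median of this pair was -0.60, and 30.8% of genes were higher in the lung metastasis. Without PDAC primary 1 the median was 4.31, with H2-DMa and Ciita under 3 reads in PDAC primary 5. Without PDAC primary 5 the median was -1.41. Each of these sets 1 library against 1, with the spread taken from the other groups.

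**Figure D2:**
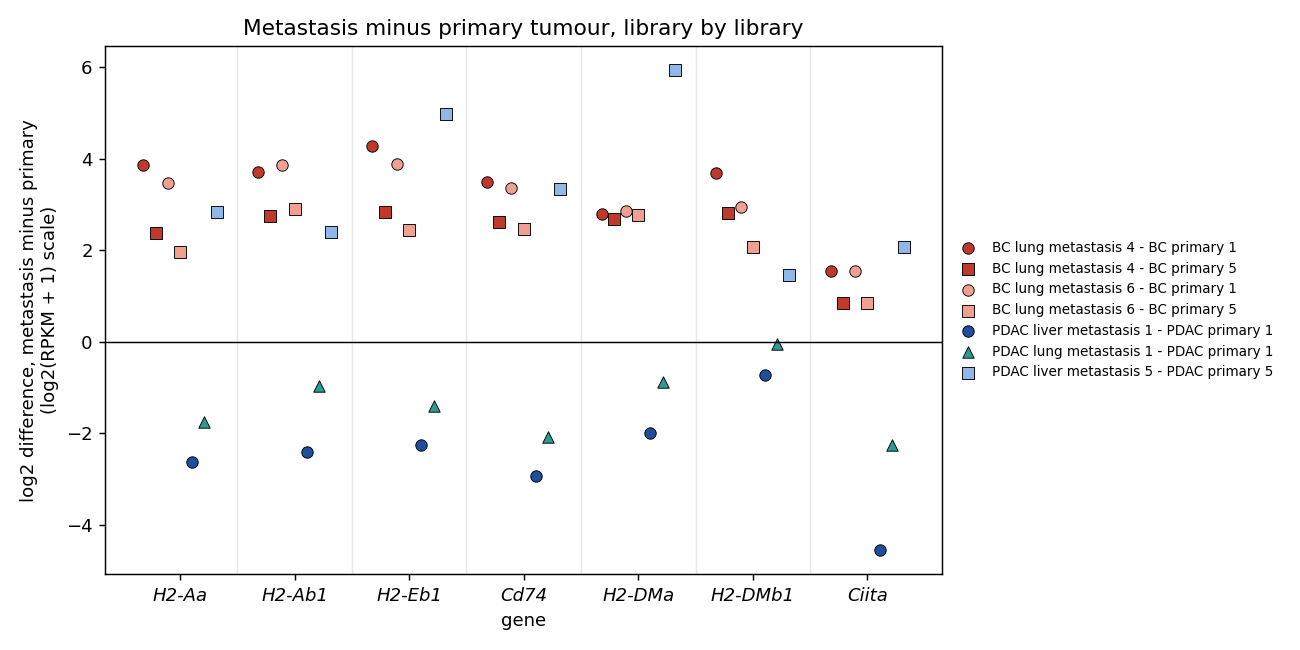
Each point is the log2 difference, metastasis minus primary on the log2(RPKM + 1) scale, between 1 metastasis library and 1 primary library, for the gene on the horizontal axis; PDAC libraries are compared within a number. All BC points and all points of PDAC number 5 (median 2.83) are above 0, and all points of PDAC number 1 are below 0 (medians -2.40 for liver and -1.41 for lung).

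Marker lists also differed between the PDAC libraries, and not all in the class II layout. PDAC primary 1 was above all PDAC metastases for B cell markers and below them all for macrophage and neutrophil markers. Pan-leukocyte markers, led by Arhgdib, Cd52 and Coro1a, summed to 1290 and 6016 RPKM in liver metastases 1 and 5 and 2391 RPKM in the lung metastasis, against 3101 and 129 RPKM in primaries 1 and 5. The B cell markers summed to 561 and 745 RPKM in liver metastases 1 and 5 and 359 RPKM in the lung metastasis, against 4394 and 170 RPKM in primaries 1 and 5. Nearly all of the sum in primary 5 was Sdc1, at 169.7 RPKM, which epithelial cells also express. In PDAC primary 1 Cd79a and Cd79b, the signalling chains of the B cell receptor, were at 1719 and 1356 RPKM, and in PDAC primary 5 Cd79a was at 0.110 RPKM and Cd79b was listed at 0. Macrophage markers, led by Lyz2, C1qb and Cd68, summed to 9401 and 5759 RPKM in liver metastases 1 and 5 and 7971 RPKM in the lung metastasis, against 1981 and 630 RPKM in primaries 1 and 5. T cell markers, led by Cd3g, Trac and Cd3d, summed to 190 and 349 RPKM in liver metastases 1 and 5 and 574 RPKM in the lung metastasis, against 440 and 0.0407 RPKM in primaries 1 and 5. Dendritic cell markers, led by Irf8, Ccr7 and Batf3, summed to 59.1 and 110 RPKM in liver metastases 1 and 5 and 274 RPKM in the lung metastasis, against 198 and 13.4 RPKM in primaries 1 and 5. Neutrophil markers reached 8716 and 217818 RPKM in liver metastases 1 and 5, with 20954 RPKM in the lung metastasis, against 1293 and 367 RPKM in primaries 1 and 5. Ltf alone held 352 RPKM of the sum in primary 5. The part of these cells in the class II levels was not tested.

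Markers of the host organ were also present. Hepatocyte markers, led by Apoa1, Apoa2 and Fgb, summed to 854 and 2154 RPKM in PDAC liver metastases 1 and 5, against 1.91 and 264 RPKM in PDAC primaries 1 and 5, and Apoa2, an apolipoprotein of the liver, rose (8.78 ± 0.97, log2, SE; limma adjusted p = 0.0425). Lung epithelial markers, led by Lyz1, Sftpc and Sftpd, summed to 36147 RPKM in the PDAC lung metastasis, against 16.9 and 465 RPKM in the primaries, and Sftpc and Scgb1a1, a secretory protein of club cells, rose (limma adjusted p = 0.025 and 0.0446). Endothelial markers, led by Cldn5, Pecam1 and Tie1, summed to 344 RPKM in the lung metastasis, against 3.74 RPKM in PDAC primary 1 and a listed 0 in PDAC primary 5, and Cldn5, a tight junction protein, rose (limma adjusted p = 0.0335). With the PDAC number as a block, none of these genes was called. In PDAC primary 5, Apoa1 at 245 RPKM held most of the hepatocyte sum, and Sftpd at 462 RPKM most of the lung epithelial sum. Epithelial markers, led by Krt18, Krt8 and Krt7, summed to 6685 and 273 RPKM in PDAC liver metastases 1 and 5, against 2234 and 17122 RPKM in PDAC primaries 1 and 5.

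The ratio of class II to leukocyte markers differed between libraries. Per RPKM of pan-leukocyte markers, the 7 genes summed to 20.7 and 28.6 RPKM in BC lung metastases 4 and 6, against 4.63 and 8.26 RPKM in BC primaries 1 and 5. The same ratio was 5.18 and 0.856 in PDAC liver metastases 1 and 5, with 5.70 in the PDAC lung metastasis, against 13.8 and 4.79 in PDAC primaries 1 and 5.

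**Figure D3:**
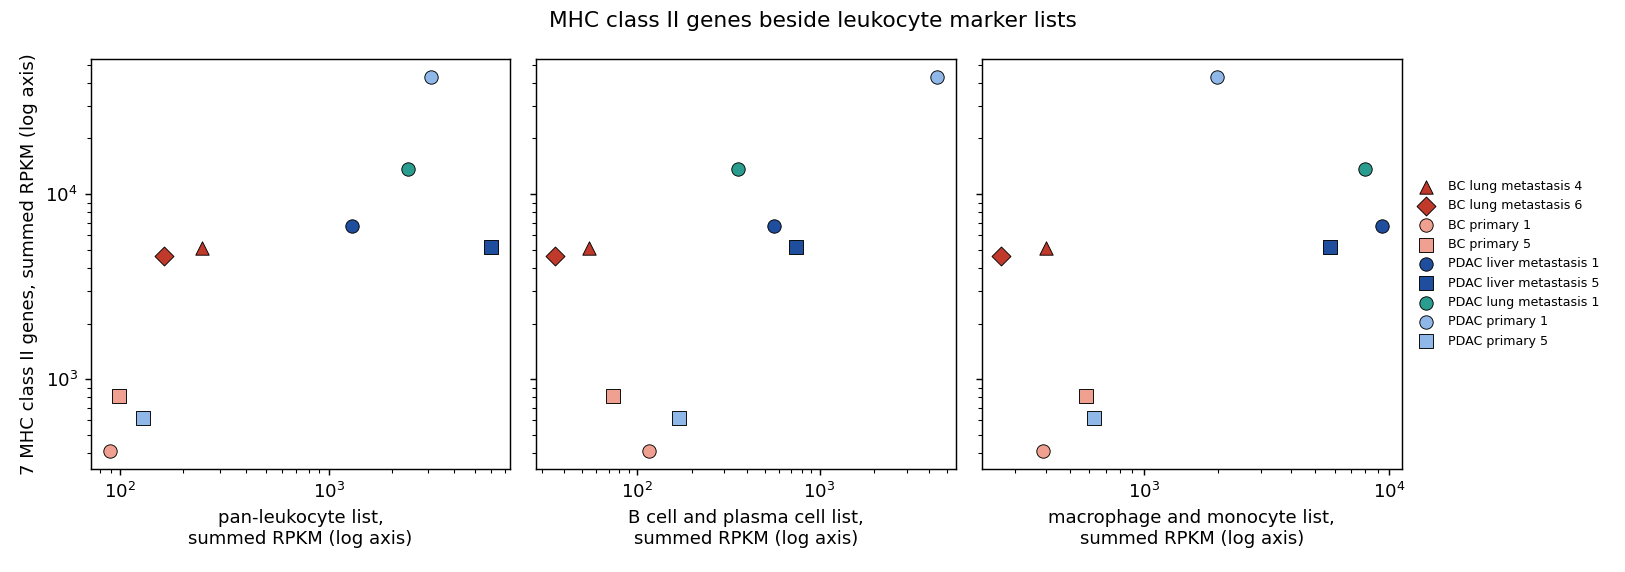
Each point is 1 library, with the summed RPKM of the 7 class II genes on the vertical axis and the summed RPKM of a marker list on the horizontal axis, both logarithmic; colours give the group and shapes the library number. PDAC primary 1 stands at the top right for B cell markers (4394 RPKM), and PDAC primary 5 (129 RPKM of pan-leukocyte markers) lies near the BC primaries, while the BC lung metastases have high class II sums beside 162 to 248 RPKM of pan-leukocyte markers.

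The metastasis effects of the 2 models were compared by an interaction term. The PDAC liver effect minus the BC lung effect was negative for 7 of 7 genes, from -3.32 to -0.82 with a median of -2.51, against 0.53 over all genes tested. No gene was called in the table (0%; limma adjusted p from 0.874 to 0.955 for the 7 genes), and 530 genes (4.13%) and none of the 7 had an unadjusted p under 0.05. Organ and model differ together here and cannot be told apart. Without PDAC primary 1 the median was 0.05.

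Primary tumours of the 2 models were also compared. The median difference of PDAC over BC primaries was 2.39 for the 7 genes, against -0.31 over all genes tested, and none was called, where 4 of 12832 genes (0.0312%) were. H2-Ab1, at 9500 and 243 RPKM in PDAC primaries, against 58.0 and 114 RPKM in BC primaries, differed by 4.21 ± 1.28 (log2, SE, n = 2 libraries each; limma adjusted p = 0.246). H2-DMb1 differed by 2.39 ± 0.99 (adjusted p = 0.340) and H2-Aa by 3.00 ± 1.34 (adjusted p = 0.376), so 3 of 7 genes had an unadjusted p under 0.05, against 13.2% of all genes. H2-Ab1 and H2-DMb1 were the 2 genes whose libraries did not overlap, against 15.7% of all genes higher. Without PDAC primary 5 the median was 5.68. Without PDAC primary 1 the median was -0.30, with H2-DMa at -4.58 on about 2.10 reads in PDAC primary 5. The PDAC side is 1 library in both. With the PDAC number as a block the median was 4.28, none of the 7 was called and 1 gene was called in all. H-2 alleles differ between mouse strains, and how the alignment treated them was not given in the sources used here, which limits any comparison of these levels between the models.

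Over both models, with the model as a covariate, the 5 metastases had higher fitted values than the 4 primaries for 7 of 7 genes, with a median of 1.71 against -0.16 over all genes tested. The differences ranged from 0.14 ± 0.99 for Ciita to 2.59 ± 1.22 for H2-DMa. None was called (limma adjusted p from 0.853 to 0.994), where 1 gene (0.00779%) was, and the libraries overlapped for all 7 genes, while 0.366% of all genes tested were higher in every metastasis and 0.538% lower. H2-DMb1 alone of the 7 had an unadjusted p under 0.05 (1.71 ± 0.73, adjusted p = 0.853), against 4.89% of all genes. Without PDAC primary 1 the median was 3.26 and 3 of the 7 genes were called, where 10 genes were called in all.

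Within a library the 7 genes kept different proportions. Per 100 RPKM of Cd74, H2-Ab1 stood at 26.1 and 31.7 in BC lung metastases 4 and 6, against 22.1 and 23.3 in BC primaries 1 and 5. It stood at 52.0 and 43.3 in PDAC liver metastases 1 and 5, with 78.1 in the PDAC lung metastasis, against 36.2 and 83.8 in PDAC primaries 1 and 5. All 5 PDAC libraries thus lay above all 4 BC libraries in this ratio. The unknown treatment of H-2 alleles in the alignment limits this comparison between the models too, and it was not tested. H2-Aa kept to 8.68 to 18.7 per 100 of Cd74 in all libraries, and H2-Eb1 to 14.0 to 26.2 in every library except PDAC primary 5, at 4.18. H2-DMa was at 5.45 and 6.32 in BC lung metastases 4 and 6 and 8.55 and 4.96 in BC primaries 1 and 5. It was at 2.48 and 2.08 in PDAC liver metastases 1 and 5, with 3.04 in the PDAC lung metastasis, against 1.32 and 0.00670 in PDAC primaries 1 and 5, the last on about 2.10 reads.

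**Figure D4:**
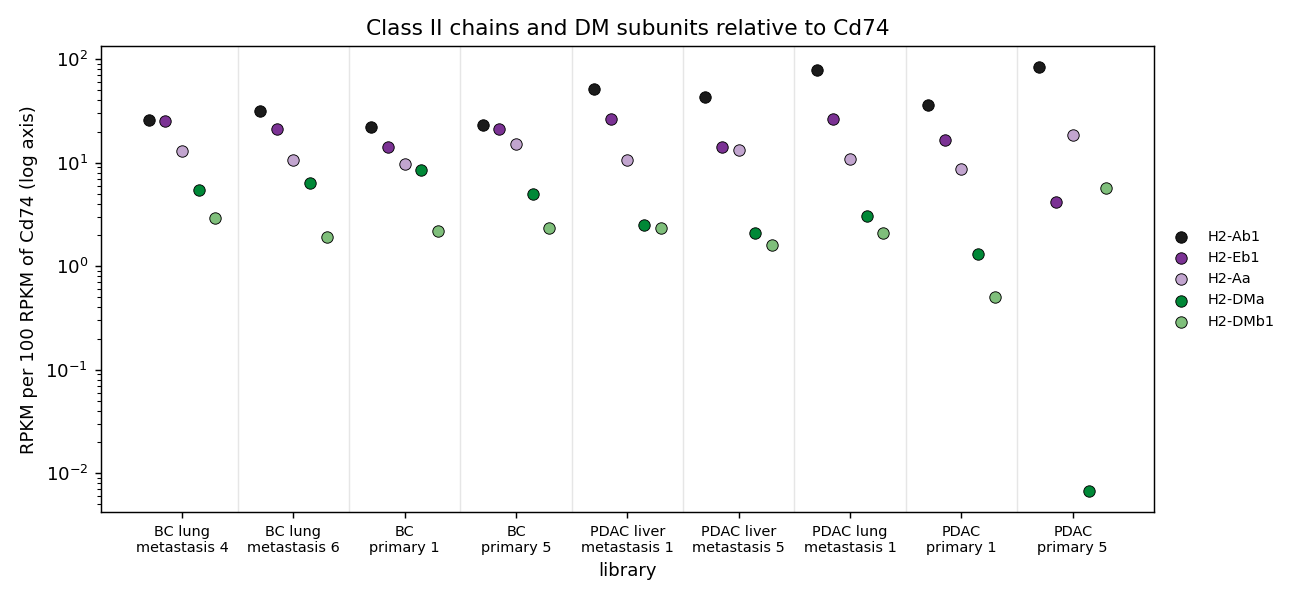
Each point is a gene's RPKM per 100 RPKM of Cd74 in the library named on the horizontal axis, on a logarithmic vertical axis, with 1 colour per gene. H2-Ab1 is the highest in all 9 libraries and H2-DMa in PDAC primary 5 is the lowest point, at 0.00670 on about 2.10 reads.

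The alpha chain gene of I-E, H2-Ea-ps, was taken up after its values were seen. C57BL/6 mice do not transcribe this gene, hence its pseudogene name in the reference genome, whereas BALB/c mice do. It measured 298 and 188 RPKM in BC lung metastases 4 and 6, against 18.9 and 59.5 RPKM in BC primaries 1 and 5. In PDAC it was at 0.278 and 46.9 RPKM in liver metastases 1 and 5 and 0.150 RPKM in the lung metastasis, against 0.0612 and 0.0613 RPKM in primaries 1 and 5. The BC libraries held 33.0 to 57.4 RPKM of it per 100 RPKM of H2-Eb1 and PDAC liver metastasis 5 held 11.3, and the other 4 PDAC libraries held 0.00142 to 0.505 on about 2.00 to 5.00 reads. PDAC liver metastasis 5 and PDAC primary 5, which share a number, differed in it.

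The remaining class II genes gave a mixed picture. H2-DMb2 measured 46.6 and 21.3 RPKM in BC lung metastases 4 and 6, against 3.27 and 6.20 RPKM in BC primaries 1 and 5. It was at 30.7 and 44.7 RPKM in PDAC liver metastases 1 and 5, with 21.1 RPKM in the PDAC lung metastasis, against 511 and 6.78 RPKM in PDAC primaries 1 and 5. PDAC primary 1 held 384 RPKM of it per 100 RPKM of H2-DMb1, where the other libraries held 16.4 to 94.5. H2-Oa and H2-Ob form DO, an inhibitor of DM found mainly in B cells. H2-Oa was at 25.6 and 16.7 RPKM in PDAC liver metastases 1 and 5, with 16.4 RPKM in the PDAC lung metastasis, against 309 RPKM in PDAC primary 1 and a listed 0 in PDAC primary 5. H2-Ob measured 4.26 and 6.36 RPKM in these liver metastases, with 33.1 RPKM in the lung metastasis, against 100.5 RPKM in PDAC primary 1 and a listed 0 in PDAC primary 5. Both were under 5 RPKM in all BC libraries, and none of the 3 tested genes of this list was called in any comparison.

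Genes that trim the invariant chain and antigens were not called in any comparison, and 7 or 8 of the 8 were at 1 RPKM or more in each library. The 8 genes, led by Cst3 (cystatin C, a cathepsin inhibitor) and the endosomal proteases Ctsl and Ctsd, had 2 positive and 6 negative differences in BC lung metastasis over primary, with a median of -0.11, and 7 positive and 1 negative in PDAC liver metastasis over primary, with a median of 0.86. Ctss, the protease of the last trimming step in antigen-presenting cells, measured 118 and 77.5 RPKM in BC lung metastases 4 and 6, against 47.0 and 79.1 RPKM in BC primaries 1 and 5. It was at 1357 and 561 RPKM in PDAC liver metastases 1 and 5, with 440 RPKM in the PDAC lung metastasis, against 858 and 225 RPKM in PDAC primaries 1 and 5. Ifi30, the lysosomal thiol reductase, measured 0.0216 RPKM in BC lung metastasis 6 and 0.0643 RPKM in PDAC primary 5, and 18.2 to 114 RPKM in the other libraries.

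Of the factors that bind the X and Y boxes and the enzymes that turn class II over, 7 of 8 listed genes were tested and none was called. They had 4 positive and 3 negative differences in BC, with a median of 0.01, and 4 positive and 3 negative in PDAC liver metastasis over primary, with a median of 0.20. The best expressed were Rfxap, Nfyc and Nfyb, subunits of the X and Y box complexes; Rfxap measured 24.4 and 46.1 RPKM in BC lung metastases 4 and 6, against 27.4 and 13.7 RPKM in BC primaries 1 and 5.

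The interferon-gamma list, which holds the pathway known to induce Ciita, had 7 positive and 5 negative differences among 12 genes in BC lung metastasis over primary, with a median of 1.04 against -0.29 over all genes tested. For 7 of them both metastases were higher than both primaries and for 1 both were lower, against 15.8% of all genes higher and 27% lower, and none was called. Cxcl9, a T cell attractant and an interferon-gamma target, measured 7.11 and 14.6 RPKM in BC lung metastases 4 and 6, against 0.530 and 2.15 RPKM in BC primaries 1 and 5 (2.36 ± 0.79, log2, SE; limma adjusted p = 0.974), and it is named after its values were seen. Of the 3 best expressed genes, Igtp, an interferon-induced GTPase, was at 159 and 79.0 RPKM in the BC lung metastases, against 38.0 and 32.2 RPKM in the BC primaries. Irf1, a transcription factor of the pathway, measured 108 and 38.0 RPKM in BC lung metastases 4 and 6, against 104 and 82.5 RPKM in BC primaries 1 and 5, and Ifngr1, a receptor chain, was at 38.2 and 1.29 RPKM, against 32.6 and 31.1 RPKM. In PDAC over BC primaries, where the class II median was 2.39, the interferon list had 2 positive and 10 negative differences and a median of -1.55, with 7 genes lower in both PDAC primaries, against 31.5% of all genes lower.

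Class I genes, led by B2m, H2-D1 and H2-K1, had 5 positive and 6 negative differences among 11 tested genes in BC, with a median of -0.03. Both BC lung metastases were higher than both primaries for 4 of the 11, these 3 leading genes among them, and lower for 1. Over all genes tested, 15.8% were higher in this way and 27% lower. B2m, the class I light chain, measured 4960 and 8295 RPKM in BC lung metastases 4 and 6, against 2415 and 2647 RPKM in BC primaries 1 and 5. In PDAC over BC primaries all 11 class I differences were negative, with a median of -1.25, and none was called; the class I gene called in any comparison was Calr, a chaperone of the endoplasmic reticulum, which fell by 5.82 ± 0.85 (log2, SE; limma adjusted p = 0.0348) in the PDAC lung metastasis, at 1.20 RPKM, against 83.2 and 182 RPKM in PDAC primaries 1 and 5; with the PDAC number as a block it was not called.

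Costimulatory molecules and class II receptors were low: Cd40, Icosl and Cd274, the best expressed by mean log2(RPKM + 1), reached 54.3, 34.0 and 14.2 RPKM at most. In BC lung metastasis over primary 1 of 6 tested genes had a positive difference, with a median of -0.36, and in PDAC over BC primaries all 6 did, with a median of 1.43; none was called. BC lung metastasis 6 listed 6 of the 8 genes at 0 and PDAC primary 5 listed 7 at 0, and both libraries had few genes above 0.

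Across the 9 libraries, each of the 7 genes was compared with the mean of the other 6 on the log2 scale. Pearson's r was 0.991 for Cd74, 0.976 for H2-Eb1, 0.975 for H2-Aa, 0.915 for H2-DMb1, 0.911 for H2-Ab1, 0.823 for Ciita and 0.818 for H2-DMa. The search for like genes covered 6411 other genes of at least 5 RPKM on average, with predicted and clone-named loci left out. Those most like the mean of the 7 were Il2rg (r = 0.959), Ssbp1 (0.944), Ift20 (0.932), Ltb (0.932), Itgb7 (0.923), Gimap5 (0.919), Tnip2 (0.917) and H2-DMb2 (0.885). Reads of H2-DMb2 could be split with H2-DMb1, so its likeness may be partly built in. Il2rg, a cytokine receptor chain of lymphocytes, measured 21.4 and 19.8 RPKM in BC lung metastases 4 and 6, against 2.90 and 4.55 RPKM in BC primaries 1 and 5. It was at 30.7 and 50.7 RPKM in PDAC liver metastases 1 and 5, with 46.5 RPKM in the PDAC lung metastasis, against 162 and 0.0134 RPKM in PDAC primaries 1 and 5. These correlations describe 9 libraries that share the gap between the 2 PDAC primaries and the differences in gene number, and they carry no test.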

How the data were processed

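RNA-seq of 9 libraries of sorted mouse tumour cells was analysed from 1 deposited table. Per the labels' protocols, RNA was isolated with RNAqueous-Micro and made into libraries with SMART-seq v4 and Nextera XT; the submitters' processing notes name mm9 as the genome, and aligner, counter and annotation are not given in the sources used here. Strand is not marked by this kit. The deposited values, named CPM, were read as RPKM made by the authors: columns summed to 288171 to 992077, and 62.6 to 74.2% of low values times gene length were whole multiples of 1 step per library (within 0.02), against 2.97 to 4.34% without length. The steps give scaling totals of 12800000 to 131100000 reads. Read numbers are estimates from these steps, and read limits cover counting error only.

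Groups follow the labels. limma 3.58.1 (R 4.3.3, statmod 1.5.0; trend, robust) was fitted on log2(RPKM + 1) to 12832 genes that reached 1 RPKM in at least 2 of 9 libraries; each group had its own mean (residual degrees of freedom: 4). Two-sided p-values were Benjamini-Hochberg adjusted over all genes tested and called under 0.05. The fit was tested on simulated data. Members, lists and tests were chosen with earlier results of these data known. Named were the 7 genes, the 3 best expressed tested genes and any called gene of each list, and the 8 genes most like the 7 in pattern. Same-numbered PDAC libraries share age and genotype labels and were taken as matched; deviations of PDAC primary 1 and liver metastasis 1 from their group means had r = -0.165 over 12832 genes. Coordinates are GRCm38.p6 and were not joined to the mm9 values. Alternatives covered pseudocount, filter, scaling, block, samples fitted and left-out libraries.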

Additional observations from a re-analysis of the deposited data

How the results depend on the processing

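The count-based tests were not run, because the values resolve to whole reads only with gene lengths of another build. Over the alternatives, 613 values for single genes kept direction and side of the threshold, 49 reversed and 24 passed, in the same direction, the threshold that they had missed; 1 of the reversed values passed it too, H2-DMa for PDAC over BC primary at 3.84 without PDAC primary 5; causes were not tested. With the groups compared alone in the fit, 6 class II genes were called in BC, with fewer samples behind the spread. Without the 3 libraries with the fewest genes above 0 (PDAC lung metastasis 1, PDAC primary 5, BC lung metastasis 6), the class II median was -2.65 for PDAC liver metastasis over primary, -5.7 for the difference between the models and 5.68 for PDAC over BC primary, with 2 genes called in the last. In that setting H2-DMb1 was at -1.09, H2-DMa at -2.24, H2-Aa at -2.58, H2-Eb1 at -2.82 and Cd74 at -3.04 for PDAC liver metastasis over primary, H2-DMa at 3.84 for PDAC over BC primary and Ciita at -1.26 over both models. For PDAC liver metastasis over primary, quantile scaling gave -0.28 for H2-Aa and -0.11 for Cd74, and rescaling without haemoglobin gave -0.07 for H2-DMb1, -0.36 for H2-Aa and -0.25 for Cd74. Rescaling gave -0.09 for Ciita over both models, quantile scaling 0.18 for H2-DMa in PDAC over BC primary, and a pseudocount of 0.1 gave 0.67 for H2-DMa in the difference between the models.

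The PDAC number as a replicate block changed no class II call. With the block, PDAC lung metastasis over primary gave -0.39 for H2-Aa, -0.52 for Cd74 and -0.60 for Ciita, PDAC over BC primary gave 1.85 for H2-DMa, and both models together gave -0.01 for Ciita.

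Leaving out 1 library at a time gave 0 to 0 called class II genes and a median of 2.54 to 3.43 in BC. For PDAC liver metastasis over primary it gave 0 to 3 called and a median of -2.65 to 2.78, with H2-Aa at -2.58 to 2.78, H2-Ab1 at -2.65 to 2.63, H2-Eb1 at -2.82 to 5.55, Cd74 at -3.04 to 3.46, Ciita at -3.72 to 1.25, H2-DMa at -2.24 to 6.17 and H2-DMb1 at -1.09 to 1.85. For PDAC lung metastasis over primary it gave 0 to 5 called and a median of -1.41 to 4.31, with H2-Aa at -1.76 to 3.61, H2-Ab1 at -0.97 to 4.31, H2-Eb1 at -1.41 to 6.95, Cd74 at -2.08 to 4.41, Ciita at -2.26 to 2.72, H2-DMa at -0.88 to 7.54 and H2-DMb1 at -0.04 to 2.89. The difference between the models had a median of -5.50 to 0.05, with Cd74 at -6.02 to 0.47, Ciita at -4.92 to 0.05, H2-DMa at -5.02 to 3.39 and H2-Eb1 at -6.18 to 2.18. PDAC over BC primary had 0 to 5 called and a median of -0.30 to 5.68, with Cd74 at -0.30 to 6.19, Ciita at -0.81 to 4.17, H2-DMa at -4.58 to 3.84 and H2-Eb1 at -2.27 to 6.09. Both models together had 0 to 3 called and a median of 0.83 to 3.26, with Ciita at -0.70 to 1.43. Each end of these ranges in PDAC came from leaving out PDAC primary 1 or PDAC primary 5. Where PDAC primary 5 alone stands for the primaries, values of H2-DMa and Ciita rest on under 3 reads there, depend on the pseudocount and are no bounds. The highest counts called for PDAC liver and lung metastasis over primary came from that setting and include H2-DMa.

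Over all genes tested, 75 were called for PDAC lung metastasis over primary, with 270 at a pseudocount of 0.1, 251 without the filter, 161 after quantile scaling, 0 with the block, with the groups compared alone or without moderation by trend, and 0 to 1547 without 1 library. For PDAC over BC primary 4 were called, with 0 to 13 under the other settings, 72 without the 3 libraries and 1 to 803 without 1 library. PDAC liver metastasis over primary had 1 called, with 0 to 2 and, without 1 library, 0 to 1032; BC had 0, with 73 in the fit of its groups alone; both models together had 1, with 0 to 10, and the difference between the models 0, with 0 to 30.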

Other observations

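Some class I genes of the H2-Q region, which lie on the same chromosome as the H2 class II genes and were chosen after their values were seen, showed a layout close to that of H2-Ea-ps. H2-Q4 measured 123 and 97.5 RPKM in BC lung metastases 4 and 6, against 78.1 and 69.4 RPKM in BC primaries 1 and 5. In PDAC it was at 0.390 and 34.6 RPKM in liver metastases 1 and 5 and 2.08 RPKM in the lung metastasis, against 2.59 and 9.45 RPKM in primaries 1 and 5. H2-Q2 measured 60.4 and 43.7 RPKM in BC lung metastases 4 and 6, against 31.0 and 24.5 RPKM in BC primaries 1 and 5. In PDAC it was at 0.531 and 24.4 RPKM in liver metastases 1 and 5 and 0.610 RPKM in the lung metastasis, against 0.575 and 6.50 RPKM in primaries 1 and 5. Both PDAC libraries of number 5 were thus above all 3 of number 1 for these genes, while H2-Ea-ps was high in PDAC liver metastasis 5 and at about 2.00 reads in PDAC primary 5. Reads of H2-Q genes can be shared between near-identical copies, so these levels are uncertain, and no test was made.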
